A study of Homo sapiens with 16 samples.

Results

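The transcription factor NRF2 (gene symbol NFE2L2), its inhibitor KEAP1 and 7 genes known as NRF2 targets (HMOX1, NQO1, TXNRD1, SRXN1, PGD, ME1 and OSGIN1) were followed across 2 human melanoma cell lines. The genes were given as a list of 9 symbols, and each symbol matched 1 of the 60676 gene identifiers in both deposited count tables. All 9 had enough counts to be tested in every comparison below. RNA was profiled by total RNA sequencing in A101D, which the labels describe as methionine dependent, and in MeWo, which they describe as methionine independent, with 8 libraries per line (replicates 1 to 8). Each group is 1 established line, so a difference between the lines cannot be told apart from any other difference between these lines.

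Both lines were grown, per the labels' protocols, in a methionine-free and cystine-free base medium with dialysed serum, to which 150 µM cystine was added. The control medium received 200 µM methionine, and the methionine-free medium received 200 µM homocysteine. No label says which culture had which medium. Libraries are therefore described by line and by replicate range (1 to 4 and 5 to 8), 4 libraries in each of the 4 groups. The range is a split of the replicate numbers and not a labelled condition, and what differed between the ranges was not given in the sources used here. Whether the libraries of a group came from separate cultures is not stated either, so the p-values measure the spread between these libraries, which may be technical.

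NRF2 is a transcription factor whose level is held down by KEAP1, an adaptor that delivers it to a CUL3 ubiquitin ligase. Oxidants and electrophiles modify cysteines of KEAP1, NRF2 then accumulates, pairs with a small MAF protein in the nucleus and binds antioxidant response elements. Its targets make NADPH, keep thioredoxin and peroxiredoxins reduced, reduce quinones and degrade heme. This control acts largely on the NRF2 protein, which was not measured here, while the values below are RNA.

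Antioxidant response elements were looked for because the 7 targets are linked by this element and did not all move alike. The letters TGACNNNGC were searched on both strands in RefSeq promoter windows (GRCh38.p14) of 300 bases, which run from 250 bases before a gene start to 50 bases after it. HMOX1 was not among the windows used. The other 8 genes had 11 windows, and 5 of these, in KEAP1, TXNRD1, PGD and ME1, held the letters, against 13.3% of all 35116 windows. In the wider pathway list described further below, 24 genes had 35 windows, and 7 of these held the letters, that of GCLM among them. The stretches below lie before the start, are written 5′ to 3′ on the strand of the gene, and carry the matched letters in capitals. GCLM, a glutathione synthesis gene, is shown beside them because its match has the same letters as 1 of the 2 in KEAP1.
KEAP1, chr19:10502778-10502841, minus strand: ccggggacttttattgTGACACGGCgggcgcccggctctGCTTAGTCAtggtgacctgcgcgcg
TXNRD1, upstream start, chr12:104215664-104215704, plus strand: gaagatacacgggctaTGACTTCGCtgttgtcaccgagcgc
TXNRD1, downstream start, chr12:104286914-104286954, plus strand: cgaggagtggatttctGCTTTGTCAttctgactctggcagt
PGD, chr1:10398847-10398887, plus strand: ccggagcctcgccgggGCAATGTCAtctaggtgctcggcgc
ME1, chr6:83431164-83431204, minus strand: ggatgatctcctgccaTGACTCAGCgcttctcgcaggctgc
GCLM, chr1:93909440-93909480, minus strand: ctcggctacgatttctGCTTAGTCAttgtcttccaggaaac

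In ME1 the match TGACTCAGC overlaps the letters TGANTCA, which AP-1 factors bind and which 7.71% of all windows held. The second match in KEAP1, the match in the downstream window of TXNRD1 and those in PGD and GCLM are on the opposite strand. There they read TGACTAAGC in KEAP1 and in GCLM, TGACAAAGC in TXNRD1 and TGACATTGC in PGD. Further matches at the gene start of TXNRD1 and just after that of ME1 are not printed. The windows of NFE2L2, NQO1, SRXN1 and OSGIN1 did not hold the letters TGACNNNGC, which says nothing of sequence outside these windows. The OSGIN1 window did hold TGANTCA.

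Total counts ran from 28910881 to 38961862 per library in A101D and from 31217443 to 38722489 in MeWo. MeWo replicate 2 stood apart: 34471 genes had a count there, where 7 MeWo libraries had 30066 to 31433. Leaving it out changed no call for the 9 genes in any of the 4 comparisons. Mitochondrial genes took 1.71% to 1.92% of the counts in A101D replicates 1 to 4, 1.93% to 2.33% in A101D replicates 5 to 8, and 1.28% to 1.45% in MeWo. All 6 melanocytic markers (SOX10, MITF, PMEL, MLANA, TYR and DCT) had counts in every group. Their summed level was 1993 to 2779 CPM (counts per 1000000, on library sizes scaled by trimmed mean of M-values) in A101D and 8078 to 8938 CPM in MeWo. The sums rest on different markers. PMEL averaged 222 CPM in A101D and 6667 CPM in MeWo, and TYR 1.52 and 299 CPM. DCT alone was lower in MeWo, at 506 CPM on average against 1492 CPM in A101D. The 9 markers of keratinocytes, leukocytes and endothelium together reached 4.45 to 5.43 CPM in replicates 1 to 4 of A101D and 17.0 to 21.9 CPM in A101D replicates 5 to 8. They reached 1.35 to 2.15 CPM in MeWo. Among the markers with no count in a group were KRT1 in A101D, CD3E in MeWo replicates 1 to 4, and KRT1 and KRT5 in MeWo replicates 5 to 8. Most of the sum in A101D replicates 5 to 8 came from the 3 endothelial markers, at 15.2 to 19.7 CPM. Of these, VWF alone had 14.2 to 17.7 CPM, while PECAM1 averaged 0.505 CPM and CDH5 1.09 CPM. The part of these shifts in the results below was not tested. In bulk RNA, fewer cells of a type and less RNA per cell cannot be told apart.

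Between the replicate ranges, HMOX1, NQO1 and TXNRD1 moved in opposite directions in the 2 lines: in A101D they were higher in replicates 5 to 8, and in MeWo they were lower there. PGD, ME1 and OSGIN1 were lower in replicates 5 to 8 of both lines. NFE2L2 and KEAP1 were higher in replicates 5 to 8 of A101D and did not pass the test in MeWo. In limma, 8 of the 9 genes passed an adjusted p threshold of 0.05 between the ranges of A101D, 5 higher and 3 lower in replicates 5 to 8. Of the 21569 genes tested, 65.6% passed there, 33.2% as higher and 32.4% as lower, so these counts do not set the 9 genes apart. In MeWo 7 of 9 passed, all of them lower in replicates 5 to 8, where 13.6% of the genes tested passed in either direction, 6.16% as higher and 7.45% as lower. The difference between the lines in this change passed for 7 of the 9, 1 positive and 6 negative, against 49.1% of the genes tested, 25.9% positive and 23.2% negative. The median log2 fold change of the 9 genes was 0.35 in A101D and -0.29 in MeWo, against medians over all genes of 0.01 and 0.00. For the 7 targets without NFE2L2 and KEAP1 it was 0.20 in A101D, where 3 were higher and 3 lower, and -0.29 in MeWo. The split of the MeWo calls over all genes depended on the scaling, with 45.3% of them higher in replicates 5 to 8 in the main scaling, 33.5% with median-of-ratios factors, 54.8% with upper-quartile factors and 66.3% with total counts only.

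**Figure D1:**
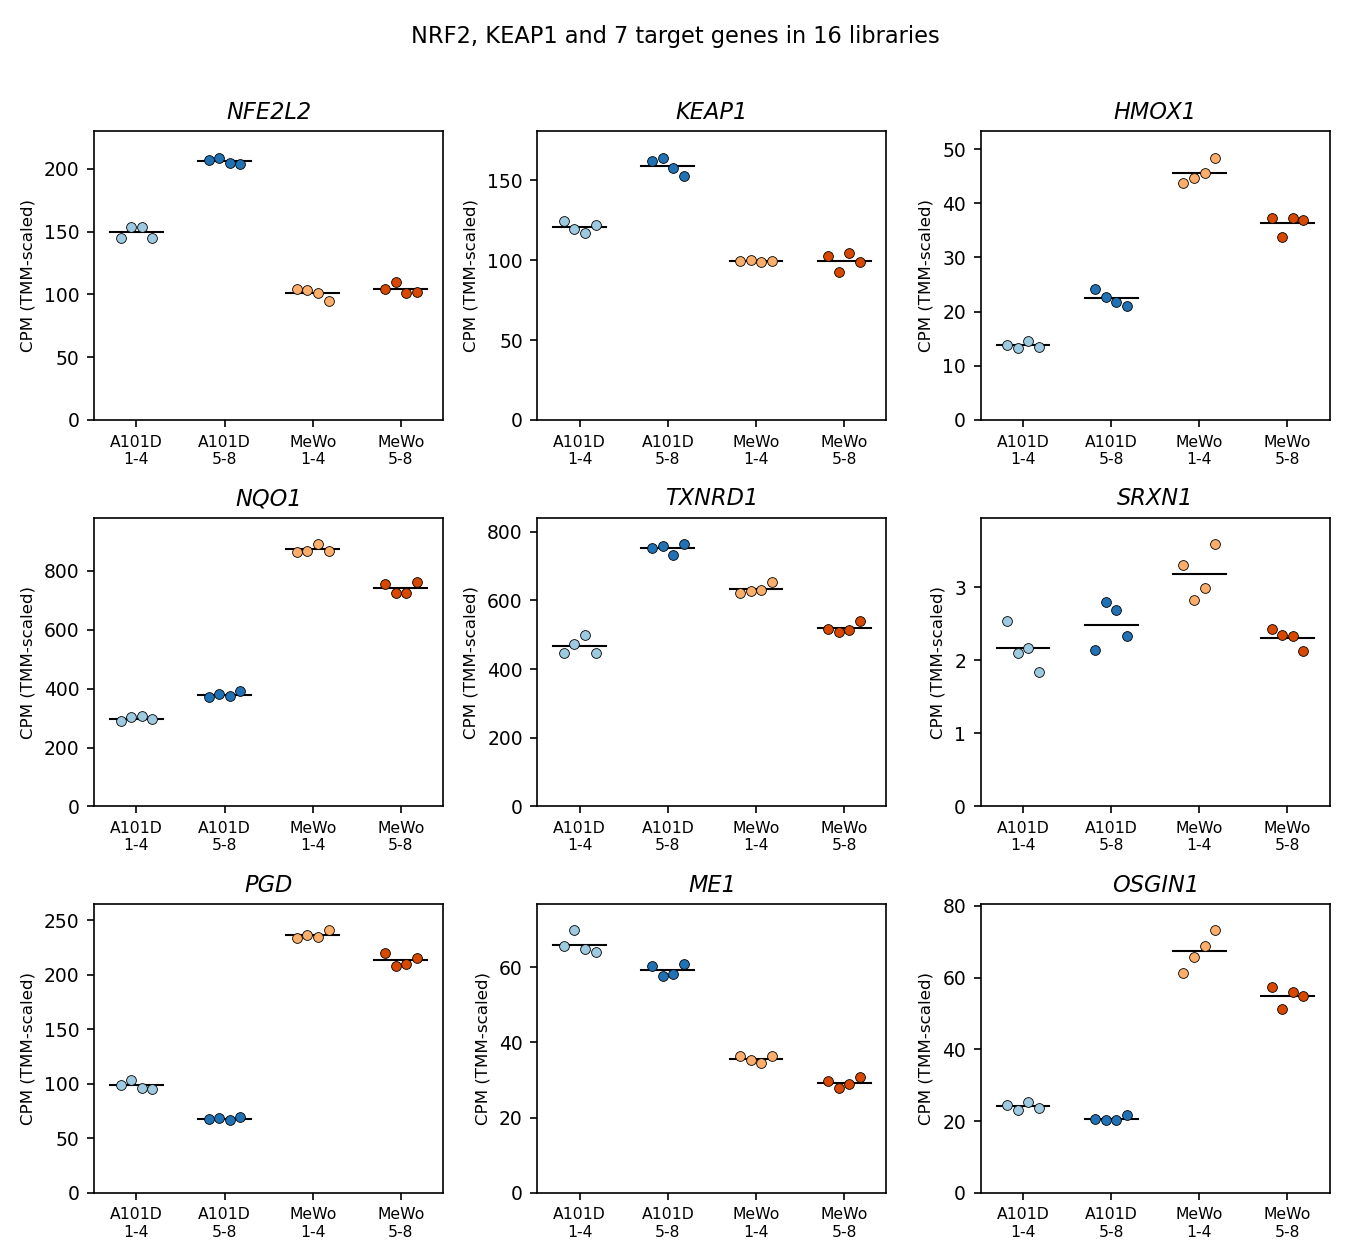
Each panel plots 1 gene, with CPM on the vertical axis from 0 and the 4 groups (line and replicate range) on the horizontal axis. Points are libraries and bars are means of 4. For HMOX1, NQO1 and TXNRD1 the A101D points step up from replicates 1-4 to 5-8 and the MeWo points step down, with no overlap between the ranges of a line.

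HMOX1 encodes heme oxygenase 1, which splits heme into biliverdin, iron and carbon monoxide (ENSG00000100292, chromosome 22, 35380361 to 35394214, GRCh38). A101D replicates 1 to 4 had 13.9, 13.3, 14.7 and 13.5 CPM, and replicates 5 to 8 had 24.1, 22.8, 21.8 and 21.0 CPM. MeWo replicates 1 to 4 had 43.7, 44.6, 45.6 and 48.4 CPM, and replicates 5 to 8 had 37.2, 33.8, 37.3 and 36.9 CPM. The ranges of each line did not overlap, and the lowest MeWo value exceeded the highest of A101D. Its log2 fold change between the ranges (5 to 8 minus 1 to 4) was 0.70 ± 0.06 (SE) in A101D, a 1.62-fold higher level (adjusted p 3.68e-13, limma). In MeWo it was -0.33 ± 0.05 (adjusted p 2.33e-06, limma). The difference between the lines in this change was -1.03 ± 0.08 on the log2 scale (adjusted p 1.03e-14, limma), larger than for any other of the 9 genes.

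TXNRD1 encodes the cytosolic thioredoxin reductase, a selenoprotein that uses NADPH to reduce thioredoxin (ENSG00000198431, chromosome 12, 104215779 to 104350305). It had 446.2, 474.3, 498.9 and 446.6 CPM in A101D replicates 1 to 4 and 752, 758, 731 and 764 CPM in replicates 5 to 8. In MeWo the values were 621, 629, 629 and 654 CPM in replicates 1 to 4 and 516, 509, 513 and 539 CPM in replicates 5 to 8. The MeWo libraries of both ranges thus lay between the A101D ranges. The log2 fold change was 0.69 ± 0.03 in A101D (adjusted p 3.05e-22, limma) and -0.29 ± 0.03 in MeWo (adjusted p 1.64e-08, limma). The difference between the lines was -0.98 ± 0.04 (adjusted p 1.06e-21, limma).

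NQO1 encodes NAD(P)H quinone dehydrogenase 1, which reduces quinones by transfer of an electron pair (ENSG00000181019, chromosome 16, 69706996 to 69726951). It had 290.9, 302.2, 305.5 and 295.8 CPM in A101D replicates 1 to 4 and 371, 383, 374 and 391 CPM in replicates 5 to 8. MeWo libraries had 866, 867, 892 and 868 CPM in replicates 1 to 4 and 757, 725, 726 and 763 CPM in replicates 5 to 8. The ranges of a line did not overlap, and the lowest MeWo library, at 725 CPM, stood well above the highest A101D library, at 391 CPM. The log2 fold change was 0.35 ± 0.03 in A101D (adjusted p 1.76e-13, limma) and -0.23 ± 0.03 in MeWo (adjusted p 3.76e-08, limma), and the lines differed by -0.58 ± 0.04 (adjusted p 8.24e-16, limma). NQO1 shares 575 exon bases with an antisense gene that had 0 counts, and the strand setting of the counting is not given in the sources used here.

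These 3 genes were among 201 of 21569 genes (0.932%) that passed the test as higher in A101D, as lower in MeWo and in the difference between the lines. The other 6 of the 9 genes did not have that pattern. SRXN1, for sulfiredoxin, which repairs overoxidised peroxiredoxins, had the same signs without passing in A101D. Its log2 fold change was 0.20 ± 0.14 there (adjusted p 0.203, limma) and -0.46 ± 0.13 in MeWo (adjusted p 0.0122, limma), and the lines differed by -0.66 ± 0.19 (adjusted p 0.00332, limma). SRXN1 had 1.84 to 2.53 CPM in replicates 1 to 4 of A101D and 2.14 to 2.79 CPM in replicates 5 to 8, with overlapping libraries. In MeWo it had 2.83 to 3.59 CPM and 2.13 to 2.42 CPM, with no overlap. These values rest on 61 to 120 counts per library. Of the 2698 exon bases of SRXN1 (chromosome 20, 646615 to 653370), 2292 are shared with another annotated protein-coding gene on the same strand, AL121758.1, which had 88 counts over the 16 libraries. Reads from the shared bases may have been given to neither gene, so the level of SRXN1 is uncertain.

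**Figure D2:**
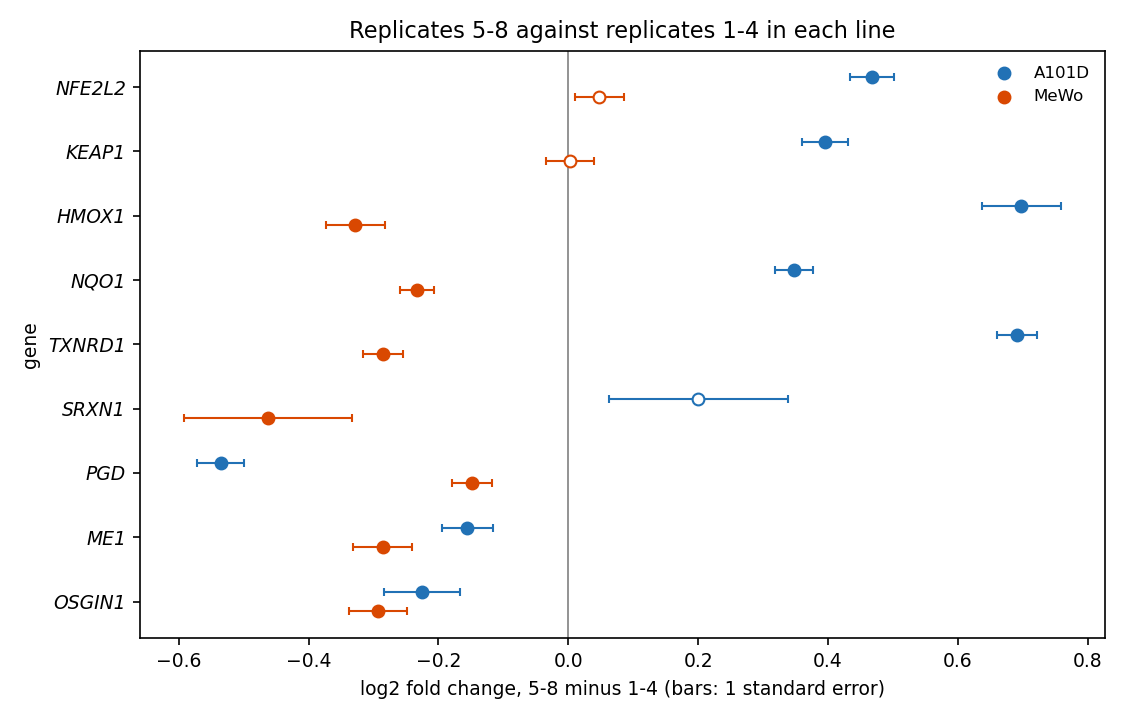
The horizontal axis gives the log2 fold change of replicates 5-8 against 1-4 in limma, and bars are 1 standard error. Blue is A101D and orange is MeWo. Filled points passed an adjusted p of 0.05 and open points did not. HMOX1, NQO1 and TXNRD1 have blue points right of 0 and orange points left of 0, whereas PGD, ME1 and OSGIN1 have both points left of 0.

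PGD and ME1 supply NADPH, the reductant that TXNRD1 and NQO1 consume. PGD encodes 6-phosphogluconate dehydrogenase of the pentose phosphate pathway (chromosome 1, 10398592 to 10420144). It had 98.7, 103.7, 96.4 and 95.4 CPM in A101D replicates 1 to 4 and 67.4, 68.5, 66.7 and 69.2 CPM in replicates 5 to 8. MeWo had 233.9 to 240.9 CPM in replicates 1 to 4 and 208 to 221 CPM in replicates 5 to 8. PGD was thus lower in replicates 5 to 8 of both lines with no overlap, opposite in A101D to HMOX1, NQO1 and TXNRD1. Its log2 fold change was -0.54 ± 0.04 in A101D (adjusted p 1.82e-16, limma) and -0.15 ± 0.03 in MeWo (adjusted p 0.000727, limma). PGD was the 1 gene of the 9 for which the difference between the lines was positive and passed the test, at 0.39 ± 0.05 (adjusted p 5.32e-09, limma).

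ME1 encodes the cytosolic NADP-dependent malic enzyme (chromosome 6, 83210389 to 83431071). It had 63.9 to 69.8 CPM in replicates 1 to 4 of A101D and 57.7 to 60.9 CPM in replicates 5 to 8. MeWo had 34.6 to 36.5 CPM and 27.9 to 30.8 CPM. Of the 7 targets, ME1 alone was higher in A101D than in MeWo in both ranges. Between the ranges its log2 fold change was -0.16 ± 0.04 in A101D (adjusted p 0.000582, limma) and -0.29 ± 0.05 in MeWo (adjusted p 2.53e-05, limma), and the difference between the lines did not pass (-0.13 ± 0.06, adjusted p 0.0698, limma). With total counts in place of scaled library sizes, ME1 no longer passed in A101D (log2 fold change -0.05, adjusted p 0.191, limma).

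OSGIN1, for oxidative stress induced growth inhibitor 1 (chromosome 16, 83948282 to 83966332), had 23.2 to 25.4 CPM in replicates 1 to 4 of A101D and 20.2 to 21.6 CPM in replicates 5 to 8. MeWo had 61.4 to 73.2 CPM and 51.3 to 57.4 CPM. The ranges of a line did not overlap, although the steps were small beside the gap between the lines. Between the ranges the change was -0.23 ± 0.06 on the log2 scale in A101D (adjusted p 0.000845, limma) and -0.29 ± 0.04 in MeWo (adjusted p 9.41e-06, limma), with a difference of -0.07 ± 0.07 (adjusted p 0.48, limma). With total counts only, the A101D value was -0.12 (adjusted p 0.0795, limma). OSGIN1 shares 481 exon bases on the same strand with the GENCODE v29 gene model AC009119.2, whose identifier is not among those of the deposited tables.

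NFE2L2, the gene of NRF2 itself (chromosome 2, 177227595 to 177392697), had 144.8, 154.1, 153.6 and 145.1 CPM in A101D replicates 1 to 4 and 207, 209, 205 and 204 CPM in replicates 5 to 8. MeWo had 94.7 to 104.7 CPM and 101.4 to 109.9 CPM, with overlap. The log2 fold change was 0.47 ± 0.03 in A101D (adjusted p 2.13e-15, limma) and 0.05 ± 0.04 in MeWo (adjusted p 0.466, limma), and the lines differed by -0.42 ± 0.05 (adjusted p 3.64e-09, limma). Its exons share 1054 bases with AC019080.1 on the same strand, which had 1110 counts against 76723 for NFE2L2, and 54 bases with AGPS on the opposite strand.

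KEAP1 (chromosome 19, 10486120 to 10503741) moved with NFE2L2 and not against it. It had 117 to 125 CPM in replicates 1 to 4 of A101D and 153 to 164 CPM in replicates 5 to 8. MeWo had 98.5 to 100.2 CPM and 92.8 to 104.2 CPM, and the narrower range lay within the wider one. KEAP1 had a log2 fold change of 0.40 ± 0.04 in A101D (adjusted p 6.81e-13, limma) and 0.00 ± 0.04 in MeWo (adjusted p 0.977, limma), and the lines differed by -0.39 ± 0.05 (adjusted p 2.2e-08, limma). In MeWo, the 7 targets were therefore lower in replicates 5 to 8, while NFE2L2 and KEAP1 did not pass the test and their libraries overlapped.

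The labelled comparison, MeWo against A101D over all 16 libraries, asked how the methionine-independent line differs from the methionine-dependent one. HMOX1, NQO1, PGD and OSGIN1 were higher in MeWo, while NFE2L2, KEAP1 and ME1 were lower. TXNRD1 and SRXN1 did not pass. In limma, 7 of the 9 genes passed, 4 higher and 3 lower, where 79.0% of the 19247 genes tested did, 38.9% as higher and 40.1% as lower. For 7 of the 9 no A101D library fell within the MeWo values, as for 57.7% of all genes tested. These shares do not set the 9 genes apart. The median log2 fold change of the 9 genes was 0.22, against -0.01 over all genes.

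PGD had the largest difference, with 66.7 to 103.7 CPM (median 82.3) in A101D and 208 to 241 CPM (median 227) in MeWo. Its log2 fold change was 1.46 ± 0.10 (adjusted p 2.6e-10, limma). OSGIN1 followed at 1.44 ± 0.08 (adjusted p 1.21e-11, limma), NQO1 at 1.26 ± 0.08 (adjusted p 6.27e-11, limma) and HMOX1 at 1.20 ± 0.13 (adjusted p 2.39e-07, limma). The transcription factor went the other way: NFE2L2 had a log2 fold change of -0.77 ± 0.09 (adjusted p 2.8e-07, limma). KEAP1 was lower by a smaller margin (-0.48 ± 0.08, adjusted p 1.65e-05, limma), and ME1 was lower at -0.95 ± 0.06 (adjusted p 2.48e-10, limma). The line with more RNA of 4 of the targets had less RNA of NRF2.

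The size of the line difference depended on the replicate range for several genes. HMOX1 was 3.30 times as high in MeWo as in A101D in replicates 1 to 4 and 1.62 times in replicates 5 to 8, as ratios of mean CPM. For NQO1 these ratios were 2.92 and 1.96. For PGD they were 2.40 and 3.14, so that its gap was wider in replicates 5 to 8. OSGIN1 had ratios of 2.78 and 2.66 and ME1 of 0.541 and 0.494.

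Within replicates 1 to 4 all 9 genes passed between the lines, where 79.4% of the genes tested did, and within replicates 5 to 8 it was 8 of 9, where 84.2% did. TXNRD1 changed direction. It was higher in MeWo in replicates 1 to 4 (log2 fold change 0.44 ± 0.03, adjusted p 2.62e-16, limma) and lower in MeWo in replicates 5 to 8 (-0.53 ± 0.03, adjusted p 2.54e-19, limma), with no overlap in either range. Its value over all libraries, -0.05 ± 0.13 (adjusted p 0.76, limma), averages opposite differences. SRXN1 was higher in MeWo in replicates 1 to 4 (0.55 ± 0.13, adjusted p 0.000284, limma) and did not pass in replicates 5 to 8 (-0.11 ± 0.13, adjusted p 0.449, limma). NFE2L2 was lower in MeWo in both ranges, at -0.56 ± 0.04 and -0.98 ± 0.04.

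**Figure D3:**
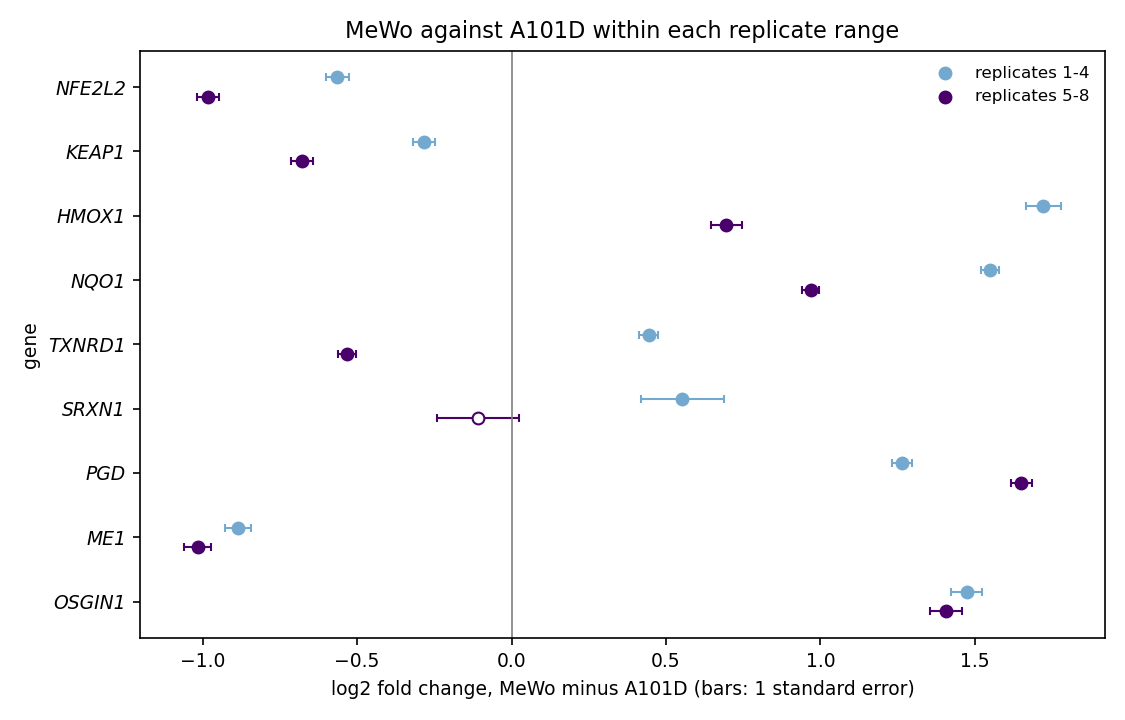
The horizontal axis gives the log2 fold change of MeWo against A101D in limma within replicates 1-4 (light blue) and within replicates 5-8 (purple), and bars are 1 standard error. Filled points passed an adjusted p of 0.05. The points of TXNRD1 lie on opposite sides of 0, at 0.44 and -0.53, and those of HMOX1 fall from 1.72 to 0.70.

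Levels of different genes were compared as CPM per kb of merged exons (GENCODE v29). NQO1 had the highest level of the 9 genes in all 4 groups, from 91.8 CPM per kb on average in A101D replicates 1 to 4 to 268 ± 3.82 (SD, n = 4) in MeWo replicates 1 to 4. TXNRD1 came second in each group. In A101D replicates 5 to 8 it nearly reached NQO1, at 112 ± 2.18 against 117 ± 2.77 CPM per kb, with no overlap. In MeWo replicates 1 to 4 it had 94.4 ± 2.14 CPM per kb, well below the 268 of NQO1.

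PGD came next in MeWo, at 79.8 ± 1.05 and 72.0 ± 1.87 CPM per kb in the 2 ranges. In A101D replicates 1 to 4, PGD (33.2 ± 1.26 CPM per kb) and KEAP1 (32.1 ± 0.936) did not differ beyond their spread. In replicates 5 to 8 PGD, at 22.9 ± 0.382 CPM per kb, had dropped below KEAP1 (42.3 ± 1.36) and NFE2L2 (34.5 ± 0.398). HMOX1 and OSGIN1 overlapped in both MeWo ranges, at 18.9 ± 0.857 and 19.4 ± 1.43 CPM per kb in replicates 1 to 4. In A101D they were apart, with OSGIN1 above HMOX1 in replicates 1 to 4 (6.99 ± 0.278 against 5.75 ± 0.257) and below it in replicates 5 to 8 (5.97 ± 0.189 against 9.33 ± 0.562). SRXN1 was lowest in each group, at 0.801 to 1.18 CPM per kb on average, with the limit given above.

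**Figure D4:**
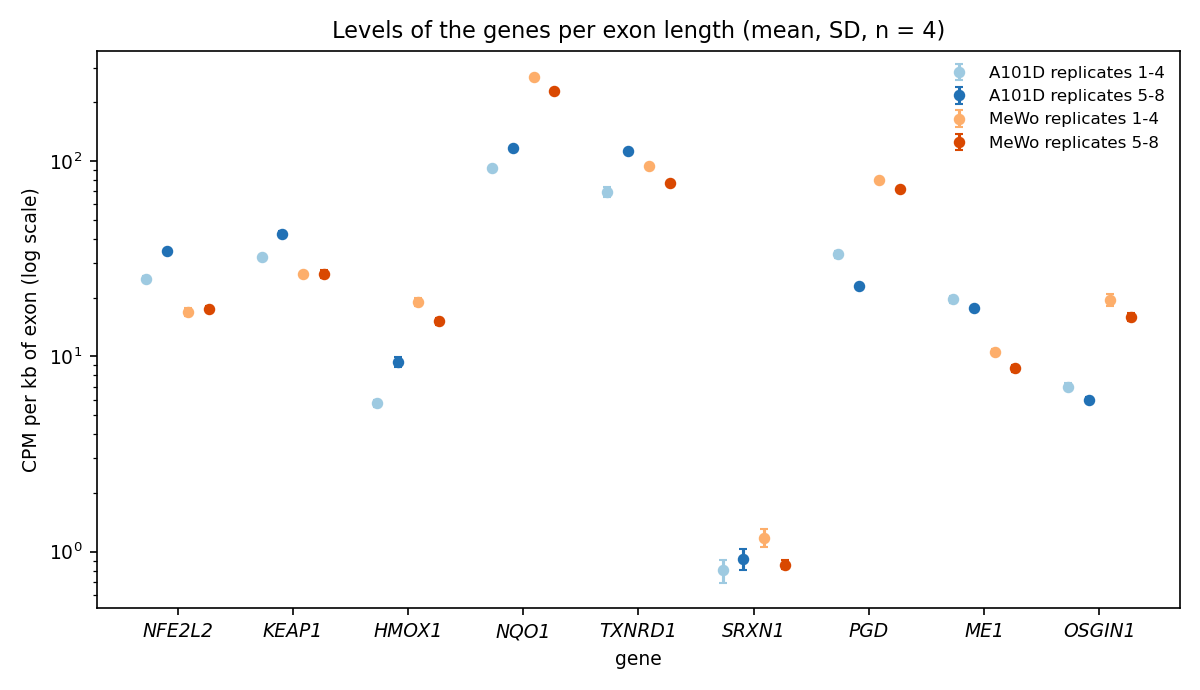
The vertical axis is a log scale of CPM per kb of exon, and the horizontal axis lists the 9 genes. Points are means and bars SD over the 4 libraries of a group. NQO1 and TXNRD1 are at the top in all groups and SRXN1 at the bottom, at 0.801 to 1.18.

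For each gene, the tested gene with the most similar profile was taken as the one with the smallest root-mean-square difference in centred log2 CPM over the 16 libraries, among 10131 genes with a mean of at least 10 CPM (10132 for SRXN1). For NFE2L2 this was GPATCH4 (0.042 log2 units), for KEAP1 B4GALT3 (0.045), for HMOX1 NHSL1 (0.112) and for NQO1 RAPGEF1 (0.077). For TXNRD1 it was NAV3 (0.093), for SRXN1 PDP2 (0.157), for PGD MAP3K3 (0.041), for ME1 SLC45A4 (0.060) and for OSGIN1 MFSD11 (0.077). Within the 9 genes, HMOX1 and NQO1 were nearest to each other (0.147), with 7 further genes nearer to HMOX1 and 49 nearer to NQO1. PGD and OSGIN1 were likewise nearest to each other (0.136), with 77 further genes nearer to PGD and 22 nearer to OSGIN1. For TXNRD1 the nearest of the 9 were SRXN1 (0.267) and KEAP1 (0.269), both farther than NAV3. TXNRD1 had 1386 genes nearer than KEAP1, and its root-mean-square difference from its own mean was 0.268. For NFE2L2, KEAP1, ME1 and SRXN1, respectively 468, 780, 1240 and 1458 genes were nearer than the nearest of the 9.

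A wider list of 33 genes of the same pathway was set beside the 9, and 32 of them were tested, since AKR1C2 did not pass the filter on low counts. Between the ranges of A101D, 28 of the 32 passed, 14 higher and 14 lower in replicates 5 to 8, where 65.6% of all genes tested passed (33.2% higher and 32.4% lower). In MeWo 16 of the 32 passed, 1 higher and 15 lower, where 13.6% of all genes did (6.16% higher and 7.45% lower). Between the lines 25 of the 32 passed, 14 higher in MeWo and 11 lower, where 79.0% of all genes did. The median log2 fold changes of the list were -0.05, -0.11 and 0.06 in these comparisons, against 0.01, 0.00 and -0.01 over all genes.

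Among the 8 regulators, 4 were higher and 3 lower in replicates 5 to 8 of A101D, where 33.2% of all genes were higher and 32.4% lower. The small MAF genes, whose proteins pair with NRF2, were all higher there. CUL3, RBX1 and SQSTM1 were lower, with log2 fold changes of -0.33 ± 0.04, -0.64 ± 0.05 and -0.24 ± 0.03. MAFF had 42.8 to 46.4 CPM in replicates 1 to 4 and 89.8 to 93.0 CPM in replicates 5 to 8, a log2 fold change of 1.03 ± 0.04 (adjusted p 2.05e-24, limma). MAFF was also the 1 gene of the wider list that was higher in replicates 5 to 8 of MeWo (0.27 ± 0.04, adjusted p 9.13e-06, limma). NFE2L1, a relative of NRF2 that drives proteasome genes, was higher in A101D replicates 5 to 8 and not called in MeWo, and the lines differed by -0.66 ± 0.05 (adjusted p 3.83e-15, limma).

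BACH1, a repressor that competes with NRF2 at HMOX1, did not pass between the ranges in either line, with log2 fold changes of 0.03 ± 0.03 (adjusted p 0.516, limma) in A101D and 0.02 ± 0.04 (adjusted p 0.791, limma) in MeWo. With total counts only, it passed in A101D (0.13, adjusted p 0.000234, limma), and with upper-quartile factors as well (0.10, adjusted p 0.00291, limma). Between the lines BACH1 was lower in MeWo, at 104 to 112 CPM (median 107) against 213 to 235 CPM (median 228) in A101D (log2 fold change -1.07 ± 0.03, adjusted p 2.05e-15, limma). Between the A101D ranges, in which HMOX1 differed, BACH1 thus passed only under the scalings just named. Whether BACH1 has a part in either difference of HMOX1 was not tested.

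The 6 glutathione and thiol genes split. SLC7A11, the cystine importer, had 59.9 to 68.8 CPM in replicates 1 to 4 of A101D and 344 to 389 CPM in replicates 5 to 8 (log2 fold change 2.55 ± 0.05, adjusted p 4.14e-30, limma). MeWo had 716 to 763 CPM in replicates 1 to 4 and 632 to 714 CPM in replicates 5 to 8, with no overlap, and did not pass (-0.10 ± 0.04, adjusted p 0.0562, limma), though it passed with median-of-ratios factors (-0.13, adjusted p 0.0156, limma) and in a fit of the MeWo libraries alone (-0.10, adjusted p 0.0381, limma). It also passed when MeWo replicate 1, 3, 6 or 8 was left out, with values of -0.12 to -0.13. GCLM, the modifier subunit of the enzyme that starts glutathione synthesis, was lower in replicates 5 to 8 of MeWo (-0.29 ± 0.04, adjusted p 3.01e-06, limma). In A101D it did not pass (-0.07 ± 0.04, adjusted p 0.154, limma), except without A101D replicate 4 (-0.10, adjusted p 0.0496, limma). GSR, which reduces oxidised glutathione, and TXN, the thioredoxin that TXNRD1 reduces, were lower in replicates 5 to 8 of both lines. GSR had the largest change of the wider list in MeWo (-0.37 ± 0.04, adjusted p 2.14e-09, limma) among genes with a mean of at least 10 CPM. In A101D, TXN had a log2 fold change of -0.50 ± 0.04 (adjusted p 6.92e-14, limma) where TXNRD1 had 0.69.

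Of the 4 genes of NADPH supply, TKT, the transketolase of the pentose phosphate pathway, was lower in replicates 5 to 8 of A101D (-0.87 ± 0.04, adjusted p 8.46e-20, limma) and of MeWo (-0.22 ± 0.04, adjusted p 0.000156, limma). It shared this direction with PGD. Among the 6 heme and iron genes, 3 were higher and 3 lower in replicates 5 to 8 of A101D, where 65.6% of all genes passed in either direction. SLC48A1, a heme transporter, was higher there (0.84 ± 0.06, adjusted p 8.08e-17, limma) and the lines differed by -0.85 ± 0.09 (adjusted p 1.23e-10, limma). The ferritin genes FTL and FTH1 were higher in MeWo than in A101D (log2 fold change 1.16 ± 0.09 and 1.72 ± 0.10), and since both have many processed pseudogenes their counts can be split and are uncertain. In the 9 detoxification and export genes, of which 8 were tested, 4 were higher and 3 lower in replicates 5 to 8 of A101D (33.2% and 32.4% of all genes), and 5 were lower in MeWo (7.45% of all genes).

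The pattern of HMOX1, NQO1 and TXNRD1 was shared by 5 of the 32 genes of the wider list, among them MAFG, AKR1B10, CBR1 and ABCC1, against the 0.932% of all genes given above. These 4 were named after their values had been seen. AKR1B10 was nearly absent from MeWo, at 0 to 13 counts per library, so its change there rests on few counts.

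**Figure D5:**
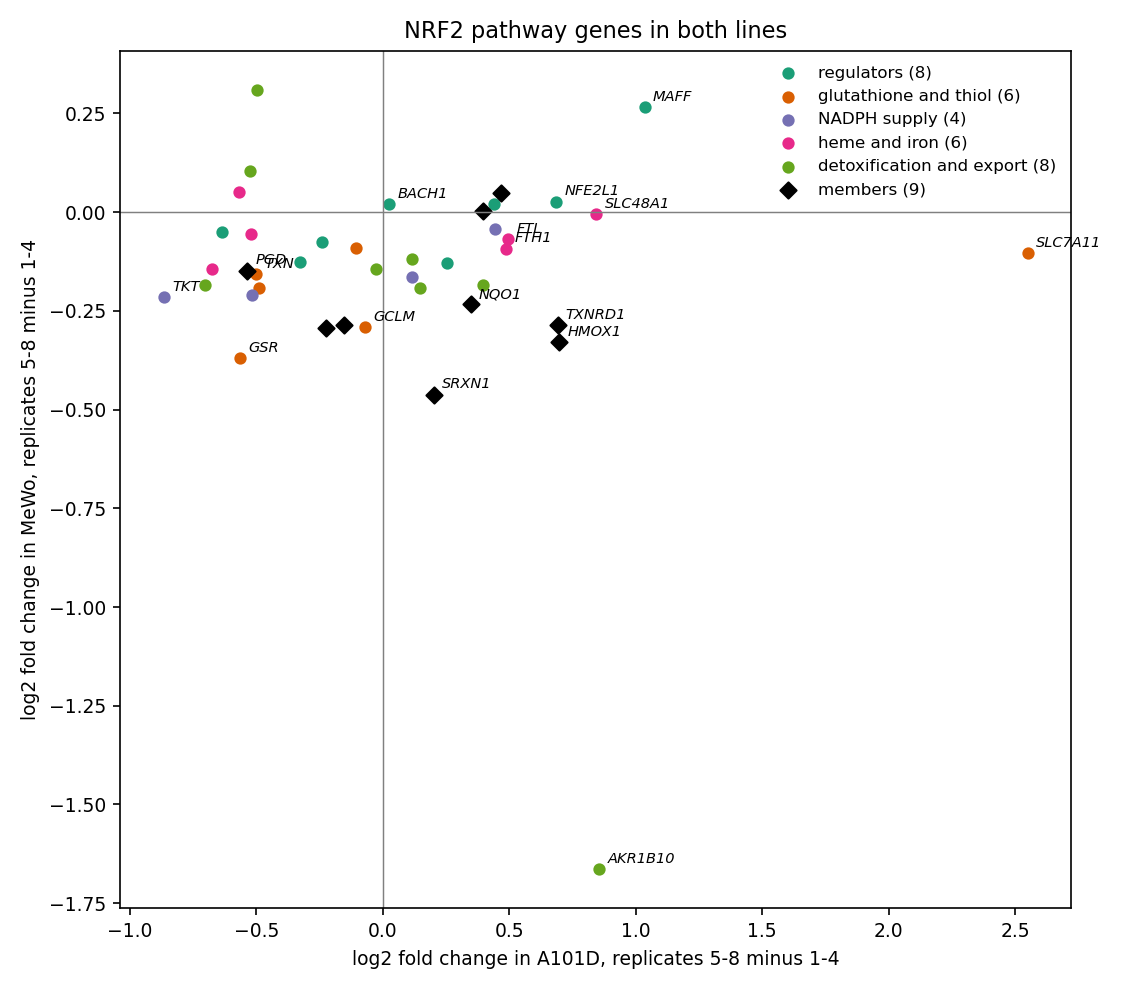
Each point is a gene, with its log2 fold change between replicate ranges in A101D on the horizontal axis and in MeWo on the vertical axis. Black diamonds are the 9 genes and colours mark the classes of the wider list. HMOX1, NQO1 and TXNRD1 lie at lower right, PGD at lower left, and SLC7A11 far right, at 2.55 in A101D and -0.10 in MeWo.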

How the data were processed

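The deposited tables hold whole-number counts per gene and library, each in 1 cell with its Ensembl identifier (unit "other"), counted over exons per the file headers. The submitters' processing notes name Trimmomatic 0.39-1, STAR 2.7.1a, featureCounts 2.0.0 and GRCh38. The kit is stranded per the labels' protocols, but whether counting used strand, and with which annotation release, is not stated there. Columns were matched to samples by line initial and replicate number. Symbols came from a gene name table and positions from GENCODE v29.

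Genes with 0.298 CPM (10 counts at median depth) in at least 8 libraries (line comparison) or 4 (comparisons with ranges), and 15 counts in all, were tested with limma 3.58.1 in R 4.3.3 (voom weights, robust moderation), on library sizes scaled by trimmed mean of M-values. The line comparison had the line as its only term. The other comparisons came from 1 fit with 4 groups (line by replicate range), sharing 1 estimate of the spread. Benjamini-Hochberg adjustment ran over all genes tested, at a threshold of 0.05. The fit was tested on simulated counts for the comparison of ranges in A101D. It recovered 65% of 100 genes changed 1.5-fold and 77% of 100 genes changed 2-fold. Of its 148 calls there, 6 were false. The simulation changed 100 genes at each fold among 20637 tested, whereas 65.6% of genes passed between the A101D ranges in the data. These rates may therefore not hold for the data. Every pair of libraries within a group differed by more than sampling noise (chi-square per degree of freedom at least 1.86). Paralogs and processed copies can share reads.

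The 9 genes, the wider list and the replicate ranges were chosen with earlier results of these data known, so p-values between ranges are descriptive. Named genes of the wider list were the 4 with the largest change per comparison among those called with at least 10 CPM on average, plus SLC7A11, GCLM and BACH1. Other regulators, and genes that shared the pattern of HMOX1, were named in addition after their values had been seen. Alternatives were other scalings, filters, limma-trend, a replicate block, single ranges or lines, and leaving out libraries. Some genes of the lists are counted but not reported here by name.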

Additional observations from a re-analysis of the deposited data

Results flagged for a closer look

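The change between replicates 1 to 4 and 5 to 8 differed between the lines for 7 of the 9 genes by the interaction test in limma. The differences (MeWo minus A101D, log2) were -0.42 for NFE2L2, -0.39 for KEAP1, -1.03 for HMOX1, -0.58 for NQO1, -0.98 for TXNRD1, -0.66 for SRXN1 and 0.39 for PGD. Of all genes tested, 49.1% passed the same test.

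In 54 groups of 4 or 8 libraries checked for the 9 genes, 2 held a library far from the others, where chance gives about 2.7. HMOX1 was 33.8 CPM in MeWo replicate 6, against 36.9 to 37.3 CPM in replicates 5, 7 and 8. NQO1 was 892 CPM in MeWo replicate 3, against 866 to 868 CPM in replicates 1, 2 and 4.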

How the results depend on the processing

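Over 567 alternative values of the 9 genes, 545 kept their direction and side of the threshold, 3 lost the call, 11 gained it and 8 changed sign. With total counts only, 1 of the 9 genes was lower in replicates 5 to 8 of A101D, against 3, because ME1 and OSGIN1 no longer passed, and that scaling moved the median of all genes there by 0.10 on the log2 scale. With upper-quartile factors ME1 did not pass either (-0.08, adjusted p 0.0606, limma). The difference between lines for ME1 passed under 9 alternatives (-0.15 to -0.20).

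Values near 0 changed sign. KEAP1 between the MeWo ranges was -0.0194 with median-of-ratios factors and ran from -0.0328 to 0.0361 when single MeWo libraries were left out. BACH1 there was -0.00112 with median-of-ratios factors and ran from -0.00176 to 0.0270 without single MeWo libraries. Without single A101D libraries BACH1 ran from -0.00103 to 0.0546 between the A101D ranges and from -0.0489 to 0.0219 for the difference between lines. GCLM between the A101D ranges was 0.00943 with upper-quartile factors and 0.0333 with total counts only. The line difference of SRXN1 was -0.11 in replicates 5 to 8 only. That of TXNRD1, near 0 over all libraries, was 0.44 in replicates 1 to 4 only, where it passed.

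The replicate numbers did not pair the libraries: deviations from the line means of same-numbered libraries correlated at 0.0526 to 0.175 over 8 pairs, and 2 of 8 numbers correlated best with their own. The replicate block gave 15347 genes called between the lines, against 15208, and changed no call of the 9 genes. The edgeR and DESeq2 tests listed as alternatives were not run, because the deposited cells join identifier and count and did not pass a check of the unit. The whole numbers in these cells could be read, and limma was run on them. SRXN1 is limited by depth, at 61 to 120 counts per library.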
